A study of Mus musculus with 6 samples.

Results

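The mitochondrial respiratory chain subunits encoded in the nucleus were followed in the hearts of mice on chow, on a diet that gives steatohepatitis, and on that diet with pemafibrate. Members were chosen by symbol and level. A gene was a member if its symbol started with Ndufa, Ndufb, Ndufc, Ndufs or Ndufv and a digit, was *Ndufab1*, *Sdha*, *Sdhb*, *Sdhc* or *Sdhd*, or started with Uqcr, Atp5, Cox4i, Cox5, Cox6, Cox7 or Cox8, and if its mean over the 6 libraries was at least 1 FPKM. FPKM are read levels scaled to the length of a gene and to the reads mapped in a library. Values of a group are given in the order replicate 1, replicate 2. Of 24346 genes in the files, 85 fitted by symbol and 83 by level as well: 38 of complex I, 4 of complex II, 8 of complex III, 16 of complex IV and 17 of complex V. The 2 genes just inside the level were *Cox6b2*, with a mean of 3.74 FPKM, and *Cox4i2*, with a mean of 13.3 FPKM. The 2 outside were *Cox7b2*, with a mean of 0.452 FPKM, and *Cox8c*, listed at 0 in the 6 libraries. Because the rule goes by symbol, it takes in *Ndufa4*, whose protein has been found in complex IV, *Cox7a2l*, which joins complexes into supercomplexes, and *Atp5s* and *Atp5sl*, which RefSeq names Dmac2l and Dmac2 and which are not subunits. Genes of the mitochondrial DNA were not analysed here.

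The study asked how this diet and pemafibrate act on the heart and the liver. The C group received normal chow, the N group a diet high in fat, cholesterol and sucrose with added bile acid, and the NP group the N diet with pemafibrate at 0.1 mg/kg. Pemafibrate is a selective modulator of PPARα, a nuclear receptor that controls fatty acid oxidation. Each group had 2 libraries of poly(A) RNA from heart. All mice were C57BL/6J males by the study's methods, which give no age, and no group carried a transgene or a deletion. The labels give 3 weeks of feeding for every library, the study's methods a longer period, and the RNA extraction note names liver although every sample is labelled heart. Heart markers were present: 11 of 11 ventricular and shared cardiomyocyte genes (*Myh6*, *Myl2*, *Myl3*, *Tnnt2*, *Tnni3*, *Actc1*, *Ttn*, *Ryr2*, *Pln*, *Mb* and *Ckm*) were detected in every library, with a summed level of 66910 to 93740 FPKM. These genes form the cardiomyocyte list used below, and atrial markers are kept apart from it. No source used here states whether a library came from 1 heart or from several, so *P* values measure the spread between these libraries, which may be technical.

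The respiratory chain carries electrons from NADH (complex I) and succinate (complex II) through ubiquinone, complex III and cytochrome c to oxygen at complex IV. Protons pumped on the way drive ATP synthase, complex V. The heart relies on this machinery for most of its ATP, and cardiomyocytes are packed with mitochondria. Many of the nuclear genes share promoter elements for the factors NRF1, YY1, the ETS protein GABP and the oestrogen-related receptors.

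To show what the members share in sequence, their promoters were read for the elements of these factors. RefSeq gave 75 promoter windows for 69 of the 83 members, each from 250 bases before to 50 bases after a start site (assembly GRCm38.p6). Among the members with no window read were *Atp5a1*, *Cox4i1*, *Cox4i2*, *Cox6a2*, *Cox6c*, *Ndufa2*, *Ndufa4l2*, *Ndufb9*, *Ndufs1*, *Sdhc*, *Uqcrb*, *Uqcrc2* and *Uqcrq*. The NRF1 element, GCGCA then any base then GCGC, was found on either strand in 18 of the 75 windows, or 24.0%, against 4.6% of 32851 promoters. The stretches below show 1 member each of complexes I, II, IV and V, taken as the member with the most negative N minus C difference among those with the element before the start and with *Ndufs5* left out. Each runs 5′ to 3′ on the minus strand, with the element in capitals.
Ndufb4 (chr16:37654525-37654584): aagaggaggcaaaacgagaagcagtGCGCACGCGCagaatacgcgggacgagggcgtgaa
Sdhd (chr9:50603894-50603953): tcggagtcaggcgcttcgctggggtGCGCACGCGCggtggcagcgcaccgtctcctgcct
Cox6a1 (chr5:115349086-115349145): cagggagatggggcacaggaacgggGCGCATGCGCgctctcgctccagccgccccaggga
Atp5k (chr5:108434415-108434474): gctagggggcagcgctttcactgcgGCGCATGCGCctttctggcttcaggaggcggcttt

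The element began 191 bases before the start in *Ndufb4*, 79 in *Sdhd*, 162 in *Cox6a1* and 50 in *Atp5k*. *Cox6a1* was the only member of complex IV found with the element, and its N minus C difference was above 0, at 0.12. The YY1 element AAGATGGC was in 16.0% of the members' windows against 2.75% of all promoters. The ETS element CCGGAAG was in 21.3% against 8.86%. Promoters of other gene sets held these elements too. In 75 windows of mitochondrial ribosome genes, the NRF1 element was in 17.3%, the YY1 element in 16.0% and the ETS element in 34.7%. In 81 windows of cytosolic ribosome genes they were in 7.41, 9.88 and 33.3%. The oestrogen-related receptor element TCAAGGTCA was in 2 windows, those of *Atp5g3* and *Sdhd*, or 2.67% against 0.423%. The direct repeat of AGGTCA with any 1 base between both copies, to which PPARα binds with its partner RXR, was in none of the members' windows and in 0.0396% of all promoters. CCAAT was in 41.3% against 37.4%. These are matches of letters and not measured binding sites, and 17 genes with the NRF1 element had a median N minus C difference of -0.33 (log2) against -0.37 for 52 genes without it.

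The 83 genes took a large part of the heart's mRNA. Their summed level was 93994 and 102363 FPKM in C, 70136 and 81046 in N, and 73862 and 83713 in NP. This was 15 and 15.7% of all FPKM in C, 12.7 and 14.0% in N, and 13.5 and 14.0% in NP. Both C libraries lay above the 4 diet libraries on both scales, and the N and NP libraries overlapped. Single genes ran from a mean of 3.74 FPKM for *Cox6b2* to 4000 FPKM for *Atp5b*, with a median of 710 FPKM. By complex, the median level was 551 FPKM in complex I, 669 in complex II, 1170 in complex III, 1280 in complex IV and 1470 in complex V.

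Some facts of the libraries bear on every difference from the C group. The depth estimated from the steps of the low FPKM values was 26000000 and 21400000 reads in C and 8240000 to 8810000 in the N and NP groups, so diet and depth cannot be told apart. Atrial markers (*Nppa*, *Myl4*, *Myl7*, *Sln* and *Bmp10*) summed to 307 and 172 FPKM in the C group and to 3665 to 6191 FPKM in the N and NP groups, and 5 of 5 passed the test between N and C. *Sln*, the atrial regulator of the calcium pump, was at 0 and 0.4495 FPKM in the C group and at 250.3 to 518 FPKM in the others. Hepatocyte markers summed to 427 FPKM in C replicate 2 and to 1.15 to 29.4 FPKM elsewhere. In bulk tissue, fewer cells of a type and less RNA per cell cannot be told apart, and the part of these differences in the results was not tested.

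**Figure D1:**
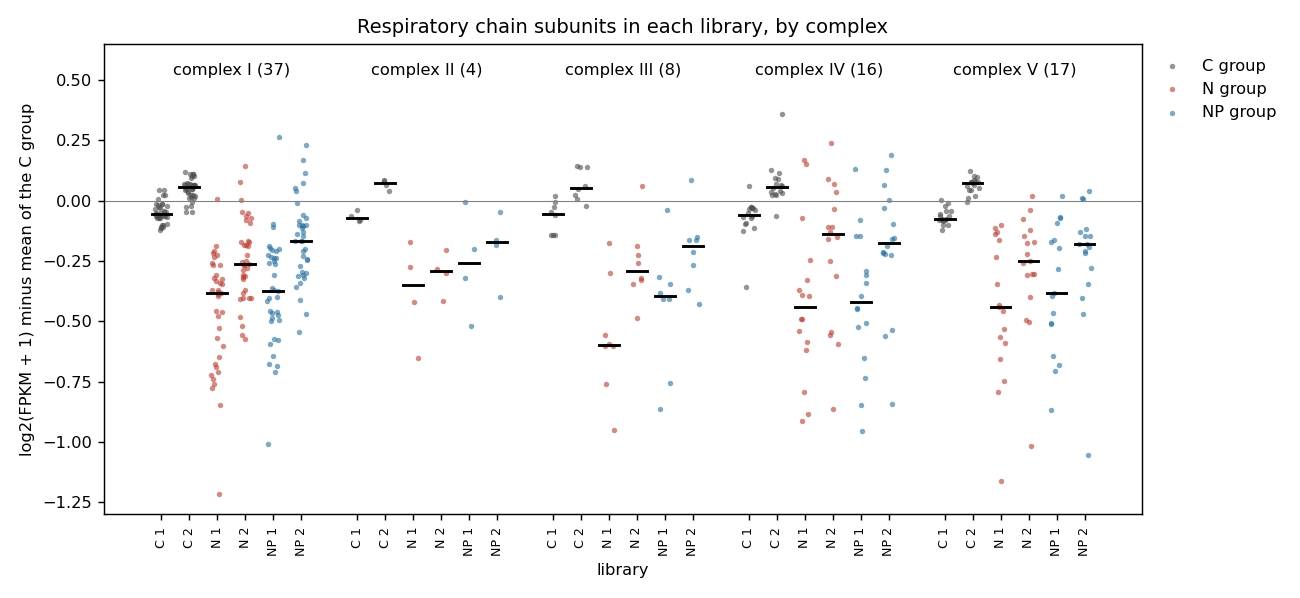
Level of 82 respiratory chain subunits in each of the 6 libraries by complex, as log2(FPKM + 1) minus the mean of the C group. Points are genes, black lines are medians, and *Ndufs5* is left out. The medians of the diet libraries lie under 0 in every complex on the FPKM as deposited. Scaled to the cardiomyocyte list, the median of N versus C is 0.00928 over all 83 members, against 0.332 over all genes tested.

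Most respiratory chain genes had a lower mean in the N than in the C group on the FPKM as deposited, though not relative to the cardiomyocyte list, and no single gene passed the test as deposited. The N minus C difference of mean log2(FPKM + 1) was under 0 for 81 of 83 members as deposited. It was under 0 for 39 of 83 when libraries were scaled so that the median of this list was the same in each. This scaling was chosen after the data were seen. Over all genes as deposited, 55.1% were under 0 and 44.8% above. After this scaling the median over all genes tested was 0.332, against 0.00928 for the members. As deposited, the median difference of the members was -0.35 (log2), against -0.03 over the 12923 genes tested. It was -0.302 without C replicate 2, the library with the hepatocyte markers, -0.407 without C replicate 1, -0.252 without N replicate 1 and -0.42 without N replicate 2. In limma, 0 of 83 members passed an adjusted *P* of 0.05, where 1.48% of all genes were called higher and 0.0696% lower. The smallest adjusted *P* was 0.0807, for *Cox4i1*. With a correction for GC content and transcript length, added after the data were seen, 3 members passed, all lower in the N group (*Cox4i1*, *Cox7a1* and *Ndufb8*). Over the 12849 genes tested with it, 247 were called higher and 42 lower. On the FPKM as deposited, 33 members were lower and 0 higher at an unadjusted *P* under 0.05, against 6.76% of all genes lower and 8.24% higher. For 63 members, both N libraries lay below both C libraries, which is 75.9% against 27% of all genes. For 2 members, *Cox4i2* and *Cox6a1*, both lay above, against 22.5% of all genes. Genes as abundant as the members were also lower: among 768 genes with a mean of at least 100 FPKM, the median was -0.195 for all and -0.357 for the 76 members among them.

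Complex I oxidises NADH and is the largest of the 5. Each of its 38 members had a lower mean log2(FPKM + 1) in the N than in the C group as deposited. The median difference was -0.36. In mean FPKM, *Ndufs5* was higher in the N group, at 131.3 against 38.86 in C. After scaling to the cardiomyocyte list the median difference was 0.000887, against 0.332 over all genes tested. Lower without overlap between the groups were 28 of 38, against 27% of all genes. *Ndufb8* (chr19:44548571-44555442), an accessory subunit of the membrane arm that is widely used as a marker of assembled complex I, had the smallest adjusted *P* of the complex. Its level was 1606 and 1759 FPKM in C, 991 and 1128 in N, and 1026 and 1152 in NP. The N and NP libraries overlapped, and both C libraries lay above them. The N minus C difference was -0.67 ± 0.13 (log2, SE, n = 2 per group; adjusted *P* = 0.0861).

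*Ndufb4*, another accessory subunit of the membrane arm, whose promoter is printed above, measured 738.5 and 812.1 FPKM in C, 332.4 and 585.4 in N, and 384.2 and 558.4 in NP. Its N minus C difference of -0.81 had an SE of 0.30, and replicate 1 lay far below replicate 2 in both diet groups (adjusted *P* = 0.295). *Ndufa4* was the most abundant symbol of the complex. It had 2330 and 2572 FPKM in C, 1530 and 2342 in N, and 1642 and 2331 in NP, so that its groups overlapped (-0.37 ± 0.26, adjusted *P* = 0.561). *Ndufa12*, an accessory subunit, differed least, by -0.04 ± 0.17 (adjusted *P* = 0.95).

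The values of *Ndufs5*, a subunit of the membrane arm, are uncertain, and a near copy of its sequence is counted apart. Whether reads of the gene were assigned to this copy was not tested. *Ndufs5* was listed at 51.8 and 25.9 FPKM in C, 262 and 0.0617 in N, and 186 and 0.0796 in NP. The annotation holds a copy, *BC002163*, in which 24.1% of the 75-base windows of *Ndufs5* occur and whose values ran the other way, with 455 and 469 FPKM in C, 27.4 and 284 in N, and 90.3 and 272 in NP. The sum of both was 507 and 495 FPKM in C, 290 and 284 in N, and 276 and 272 in NP. In the sum, replicates lay close together and the C group stood above both diet groups. The sum in the N group was 0.573 times that in C, while the fitted difference of *Ndufs5* alone was -1.17 ± 3.19 (adjusted *P* = 0.908).

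Complex II, succinate dehydrogenase, belongs to the tricarboxylic acid cycle as well as to the respiratory chain. Its 4 genes were each lower in both N libraries than in both C libraries as deposited, as were 27% of all genes. Their median difference was -0.30. After scaling to the cardiomyocyte list it was 0.0634, against 0.332 over all genes tested. *Sdhb*, the iron-sulphur subunit, measured 1083 and 1217 FPKM in C, 731.2 and 860.2 in N, and 800.1 and 869.6 in NP. Both diet groups lay below the C group and overlapped each other (N minus C -0.53 ± 0.13, adjusted *P* = 0.148). *Sdha*, the flavoprotein that oxidises succinate, measured 890.6 and 939.7 FPKM in C, 811.3 and 751.1 in N, and 911.8 and 806.1 in NP. Here the NP group overlapped both others (N minus C -0.23 ± 0.12, adjusted *P* = 0.433). The membrane anchors differed by -0.24 ± 0.12 for *Sdhc* (adjusted *P* = 0.415) and -0.36 ± 0.12 for *Sdhd* (adjusted *P* = 0.247).

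Complex III passes electrons from ubiquinol to cytochrome c. Each of its 8 members had a lower mean in the N than in the C group as deposited. Of these, 7 did not overlap, against 27% of all genes lower without overlap. The median difference of -0.42 was the most negative of the complexes. After scaling to the cardiomyocyte list it was -0.0593, against 0.332 over all genes tested. *Uqcrh*, the hinge protein that binds cytochrome c1, measured 1862 and 2262 FPKM in C, 1062 and 1616 in N, and 1129 and 1590 in NP. Both diet groups lay below the C group, with replicate 1 the lower in each (N minus C -0.65 ± 0.26, adjusted *P* = 0.332). The core subunit *Uqcrc1* measured 1094 and 1104 FPKM in C, 973.2 and 784 in N, and 1069 and 913.6 in NP, and here replicate 2 was the lower (-0.33 ± 0.15, adjusted *P* = 0.376). The other core subunit, *Uqcrc2*, differed by -0.43 ± 0.16 (adjusted *P* = 0.29), and *Uqcrb*, which binds ubiquinone, by -0.12 ± 0.20 (adjusted *P* = 0.839). *Uqcr11*, a small subunit at the edge of the complex, had 2036 and 1981 FPKM in the C group and 1367 and 1606 in N (-0.44 ± 0.13, adjusted *P* = 0.203). Outside the symbol rule, *Cyc1*, the cytochrome c1 of this complex, measured 1083 and 1093 FPKM in the C group and 792 and 746.4 in N (-0.50 ± 0.10, adjusted *P* = 0.103).

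Complex IV reduces oxygen, and its nuclear subunits include pairs of isoforms, 1 restricted to muscle or to few tissues and 1 general. Of its 16 members, 14 had a lower mean in the N than in the C group as deposited. Lower without overlap were 10, against 27% of all genes. After scaling to the cardiomyocyte list the median difference was 0.0765, against 0.332 over all genes tested. As deposited it was -0.29. The median was -0.14 without N replicate 1 and -0.443 without N replicate 2. *Cox4i1* (chr8:120668225-120674209), the general form of the subunit IV that regulates the enzyme by ATP, measured 3728 and 3884 FPKM in C, 2193 and 2589 in N, and 2423 and 2576 in NP. The C libraries stood apart from the 4 others, and the N and NP libraries overlapped (N minus C -0.68 ± 0.13, adjusted *P* = 0.0807). *Cox7a1* (chr7:30184171-30186030), the heart and muscle form of subunit VIIa, measured 4677 and 4944 FPKM in C, 2553 and 3188 in N, and 2673 and 3314 in NP, with the same order of groups. Its N minus C difference was -0.75 ± 0.17 (adjusted *P* = 0.12).

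The other muscle isoforms differed less. *Cox6a2*, the muscle form of subunit VIa, measured 3009 and 3280 FPKM in C, 2987 and 2528 in N, and 2972 and 2813 in NP. Both N libraries lay under both C libraries by a small margin (N minus C -0.19 ± 0.13, adjusted *P* = 0.55). *Cox8b*, the muscle form of subunit VIII, measured 2424 and 2608 FPKM in C, 2002 and 2454 in N, and 2271 and 2517 in NP, and its groups overlapped (-0.18 ± 0.14, adjusted *P* = 0.609). As shares, *Cox7a1* made up 89.1 and 87.9% of *Cox7a1* plus *Cox7a2* in C, 85.2 and 84.7% in N, and 86.0 and 85.9% in NP. This share, which does not depend on scaling between libraries, was higher in both C libraries than in the 4 others. *Cox6a2* made up 94.2 and 94.5% of its pair in C, 93.3 and 92.7% in N, and 94.6 and 93.4% in NP. *Cox8b* made up 87.9 to 90.0% of its pair in the 6 libraries, with no separation of the N from the C group. The shares carry no test, since the smallest two-sided *P* of an exact permutation test of 2 libraries against 2 is 0.333.

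*Cox4i2* and *Cox6a1* went the other way. *Cox4i2*, the form of subunit IV linked to low oxygen and known from lung, measured 12.7 and 11.6 FPKM in C, 13.6 and 14.5 in N, and 13.4 and 14.0 in NP. Its difference between N and C was 0.20 ± 0.11 (adjusted *P* = 0.462), and it was 0.298 to 0.34% of the Cox4 pair in the C group and 0.54 to 0.618% in the diet groups. *Cox6a1*, the general form of subunit VIa, measured 186 and 192.4 FPKM in C, 213.1 and 198.8 in N, and 170.9 and 198 in NP (0.12 ± 0.12, adjusted *P* = 0.691). Both C libraries lay below both N libraries for both genes, and neither gene passed the test as deposited. The general forms *Cox7a2* and *Cox8a* differed by -0.30 ± 0.19 (adjusted *P* = 0.52) and -0.18 ± 0.12 (adjusted *P* = 0.532).

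**Figure D2:**
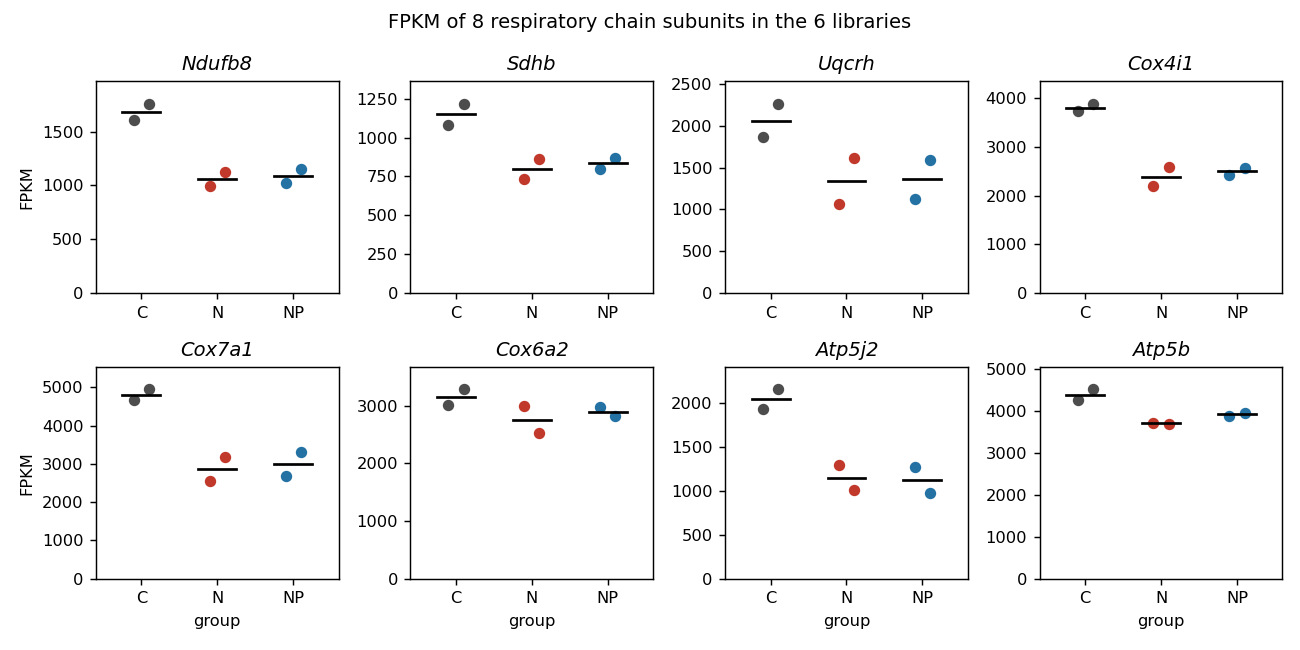
FPKM of 8 subunits in the 6 libraries, with 1 point per library, a line at each group mean and axes from 0. For *Ndufb8*, *Sdhb*, *Uqcrh*, *Cox4i1*, *Cox7a1* and *Atp5j2* both C libraries lie above the 4 diet libraries, while *Cox6a2* and *Atp5b* differ less.

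Complex V makes ATP. Each of its 17 members had a lower mean in the N than in the C group as deposited. The median difference was -0.30. After scaling to the cardiomyocyte list it was 0.0638, against 0.332 over all genes tested. Lower without overlap were 14 of 17, against 27% of all genes. *Atp5j2* (chr5:145183704-145191541), subunit f of the membrane part, had the most negative difference. It measured 1932 and 2159 FPKM in C, 1296 and 1008 in N, and 1275 and 983 in NP. The C libraries stood well above the others, and replicate 2 was the lower in both diet groups, unlike in most members (N minus C -0.84 ± 0.19, adjusted *P* = 0.122). *Atp5k*, subunit e, whose promoter is printed above, measured 3807 and 4372 FPKM in C, 2353 and 2876 in N, and 2501 and 2946 in NP (-0.65 ± 0.16, adjusted *P* = 0.143). *Atp5e*, the epsilon subunit, differed by -0.73 ± 0.30 (adjusted *P* = 0.341).

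*Atp5b*, the catalytic beta subunit and the most abundant member, measured 4249 and 4510 FPKM in C, 3721 and 3685 in N, and 3885 and 3958 in NP. The 3 groups did not overlap and stood in the order C, NP, N, but the N minus C difference was small (-0.24 ± 0.11, adjusted *P* = 0.366). The genes of the rotor subunit c, which code for the same mature protein, differed by -0.20 ± 0.11 for *Atp5g1* (adjusted *P* = 0.461), -0.14 ± 0.11 for *Atp5g2* (adjusted *P* = 0.595) and -0.21 ± 0.16 for *Atp5g3* (adjusted *P* = 0.609). *Atp5g3* gave 47.2 to 53.8% of their sum, *Atp5g1* 33.9 to 39.3% and *Atp5g2* 11.3 to 13.6%. These shares followed the replicate number more than the group, and 86.9% of the 75-base windows of *Atp5g2* occur in other transcripts.

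**Figure D3:**
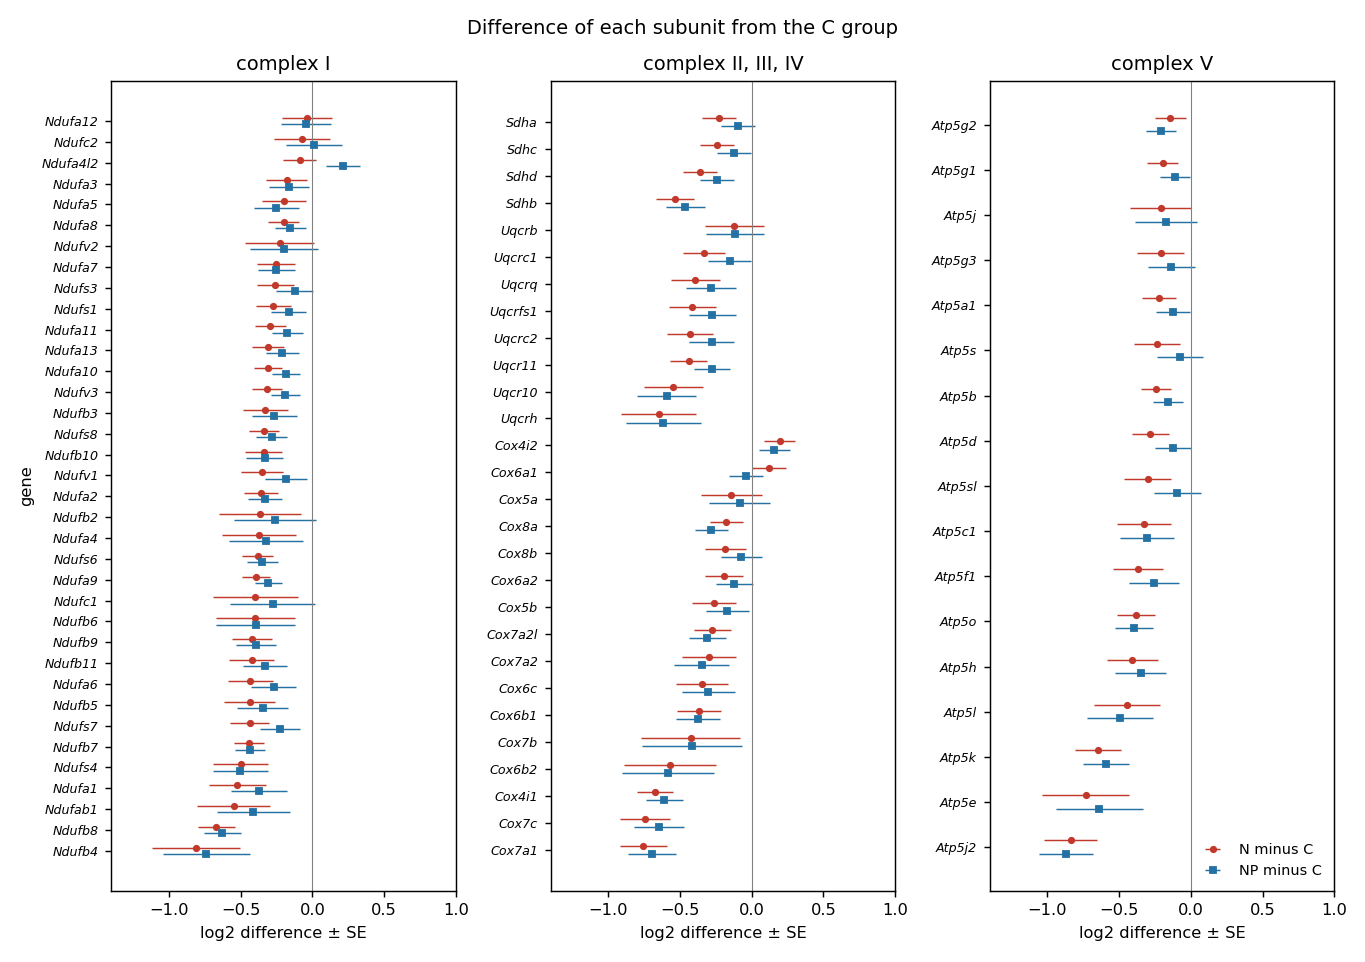
Log2 difference of 81 of the 83 subunits from the C group with its SE, for N minus C (circles) and NP minus C (squares), n = 2 libraries per group, sorted within each complex, with *Ndufs5* among those left out. Most points lie left of 0 on the FPKM as deposited, and the circle and square of *Ndufa4l2* lie farthest apart. Scaled to the cardiomyocyte list, 44 of the 83 members lie above 0 for N versus C. The median over all genes tested is then 0.332.

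Between NP and N, which addresses pemafibrate on the same diet, the members differed little. As deposited, 67 of 83 had a higher mean log2(FPKM + 1) in the NP group. The median difference was 0.07, against 0.03 over all genes. After scaling to the cardiomyocyte list, 3 of 83 members had a higher mean. Over all genes, 55.8% were higher as deposited. After the scaling the median over all genes was -0.17, against -0.125 for the members. In limma on the FPKM as deposited, 0 of 83 passed an adjusted *P* of 0.05, where 0% of all genes were called higher and 1.39% lower. At an unadjusted *P* under 0.05, 1 member was higher, *Ndufa4l2*, and 0 were lower, against 2.21% of all genes higher and 5.83% lower. For 9 members both NP libraries lay above both N libraries (10.8%, against 15.2% of all genes), and for *Cox6a1* and *Atp5g2* both lay below (against 14.7%). These shares were under those of all genes in both directions. By complex the medians were 0.08 in complex I, 0.12 in complex II, 0.12 in complex III, 0.03 in complex IV and 0.08 in complex V. After scaling to the cardiomyocyte list all 5 were under 0. They also depended on single libraries. Without N replicate 1 the median was -0.0539 over all members, -0.0371 in complex I, 0.068 in II, -0.0728 in III, -0.105 in IV and -0.0594 in V. Without NP replicate 2 it was -0.0446 over all members, -0.0332 in complex I, 0.0396 in II, 0.00359 in III, -0.111 in IV and -0.0533 in V.

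*Ndufa4l2*, a paralogue of *Ndufa4* known as a target of hypoxia signalling, had the largest NP minus N difference. It measured 20.43 and 19.12 FPKM in C, 19.86 and 17.24 in N, and 23.94 and 22.32 in NP. Both NP libraries lay above the 4 others, and the difference was 0.31 ± 0.12 (unadjusted *P* = 0.042, adjusted *P* = 0.577). For the members with the clearest N minus C differences, the NP minus N difference was 0.07 ± 0.13 for *Cox4i1* (adjusted *P* = 0.992), 0.06 ± 0.17 for *Cox7a1* (adjusted *P* = 0.994) and 0.04 ± 0.13 for *Ndufb8* (adjusted *P* = 0.995). Each was smaller than its SE. Among the most positive of their complexes were *Uqcrc1* with 0.18 ± 0.15 (adjusted *P* = 0.935), *Atp5sl* with 0.20 ± 0.16 (adjusted *P* = 0.925), *Sdha* with 0.14 ± 0.12 (adjusted *P* = 0.935) and *Cox8b* with 0.11 ± 0.14 (adjusted *P* = 0.977). *Cox6a1* was lower in both NP libraries, by -0.16 ± 0.12 (adjusted *P* = 0.907). *Atp5b* differed by 0.08 ± 0.11 (adjusted *P* = 0.977).

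The N and NP libraries were deposited under headings of different kinds, replicate 1 under a name with the tissue and replicate 2 under a name with the weeks. Set within each kind, the median NP minus N difference of the members was 0.0791 for replicate 1, with 64 of 83 above 0, and 0.0515 for replicate 2, with 60 of 83 above 0. Over all genes these medians were 0.0186 and 0.0186. The difference between replicates was larger than that between NP and N: replicate 2 exceeded replicate 1 by a median of 0.232 in N (60 of 83 members) and 0.211 in NP (66 of 83), and in the C group by 0.124 (74 of 83). In each group this difference was related by rank to base composition. Across the 83 members, Spearman's rho of the replicate difference with the GC content of the transcript was -0.414 in C, -0.537 in N and -0.453 in NP, against -0.265, -0.395 and -0.282 across all genes with a transcript. Pearson's correlation, with *Ndufs5* included, was weaker over the members, at -0.192 in C, -0.115 in N and -0.0658 in NP. Across all genes with a transcript it was -0.113, -0.253 and -0.171. Genes of 1 library share its depth and its amplification, and are not independent points.

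**Figure D4:**
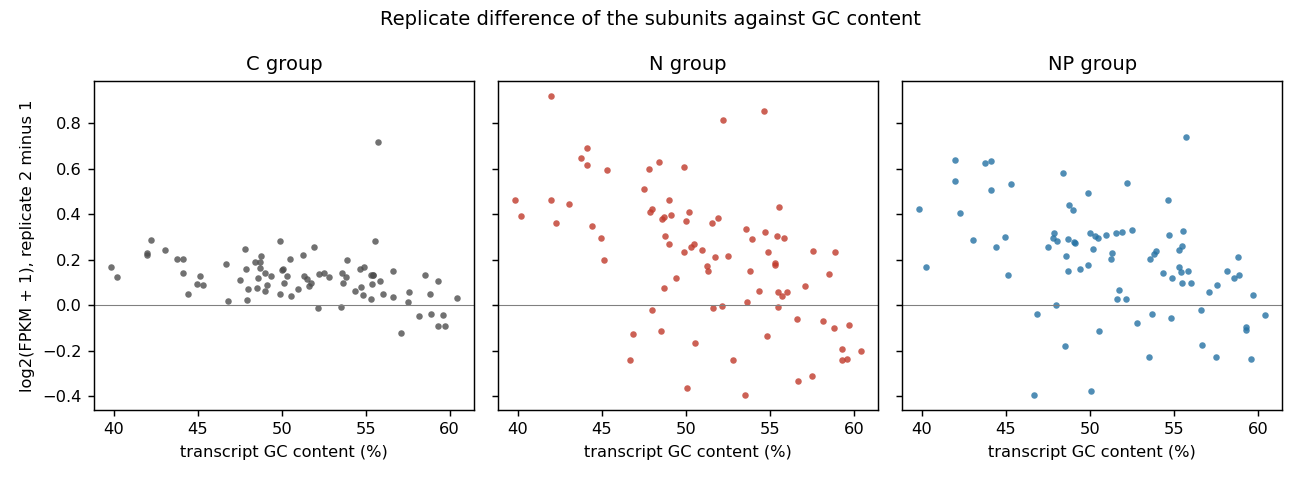
Replicate 2 minus replicate 1, as log2(FPKM + 1), against the GC content of the transcript for 82 subunits in each group, with *Ndufs5* left out. Points of low GC content lie higher in all 3 panels, with a wider spread in the N and NP groups than in the C group.

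The comparison of NP and C shares the C libraries with that of N and C. As deposited, 80 of 83 members had a lower mean log2(FPKM + 1) in the NP group. After scaling to the cardiomyocyte list, 60 of 83 did. In mean FPKM, *Ndufs5* was higher in the NP group, at 92.85 against 38.86 in C. Over all genes, 52.8% were lower as deposited. After the scaling the median over all genes was 0.155, against -0.105 for the members. As deposited, the median difference of the members was -0.27 against -0.01 over all genes, and -0.168 without NP replicate 1. In limma 0 of 83 passed, where 0.0387% of all genes were called higher and 0% lower, and at an unadjusted *P* under 0.05, 17 members were lower and 0 higher, against 4.18% of all genes lower and 3.87% higher. For 60 members both NP libraries lay below both C libraries (72.3%, against 23% of all genes), and for *Cox4i2* and *Ndufa4l2* both lay above (against 19.5%). The differences were -0.61 ± 0.13 for *Cox4i1* (adjusted *P* = 0.427), -0.69 ± 0.17 for *Cox7a1* (adjusted *P* = 0.478), -0.63 ± 0.13 for *Ndufb8* (adjusted *P* = 0.409) and -0.87 ± 0.19 for *Atp5j2* (adjusted *P* = 0.437). They stand beside -0.68, -0.75, -0.67 and -0.84 between N and C.

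Genes that work with the respiratory chain were counted from lists written by hand. Between N and C, a mean below that of the C group was found as deposited for 14 of 14 genes of the tricarboxylic acid cycle (median -0.31), 76 of 77 of the mitochondrial ribosome (median -0.32), 15 of 16 complex I assembly factors (median -0.29), 4 of 4 for complex II (median -0.34), 8 of 8 for complex III with cytochrome c (median -0.34), 22 of 25 for complex IV (median -0.17) and 5 of 5 for complex V (median -0.29). It was also found for 12 of 13 genes of coenzyme Q synthesis (median -0.19), 13 of 14 of mitochondrial import and structure (median -0.25) and 13 of 18 regulators of mitochondrial genes (median -0.09). In these lists, 0 genes passed the adjusted test in any of the 3 comparisons. At an unadjusted *P* under 0.05 between N and C, 27 of 77 genes of the mitochondrial ribosome and 6 of 14 of the cycle were lower. Over all genes tested, 55.1% had a lower mean and 6.76% were lower at this *P*. Between NP and N the medians were 0.13 for the cycle (14 of 14 above 0) and 0.04 for the mitochondrial ribosome (52 of 77 above 0).

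*Cs*, the citrate synthase that opens the cycle, measured 765.8 and 801.9 FPKM in C, 720.5 and 610.5 in N, and 747.9 and 672.5 in NP (N minus C -0.24 ± 0.13, adjusted *P* = 0.452). *Ppargc1a*, the coactivator that drives mitochondrial biogenesis, measured 65.54 and 41.38 FPKM in C, 70.69 and 44.13 in N, and 59.4 and 31.42 in NP. Its replicates differed more than its groups (0.10 ± 0.39, adjusted *P* = 0.939). *Esrra*, an oestrogen-related receptor that works with it, differed by -0.24 ± 0.15 (adjusted *P* = 0.505), and *Tfam*, which packs and transcribes mitochondrial DNA, by -0.27 ± 0.14 (adjusted *P* = 0.457). *Cycs*, the electron carrier cytochrome c, differed by -0.34 ± 0.26 (adjusted *P* = 0.599).

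**Figure D5:**
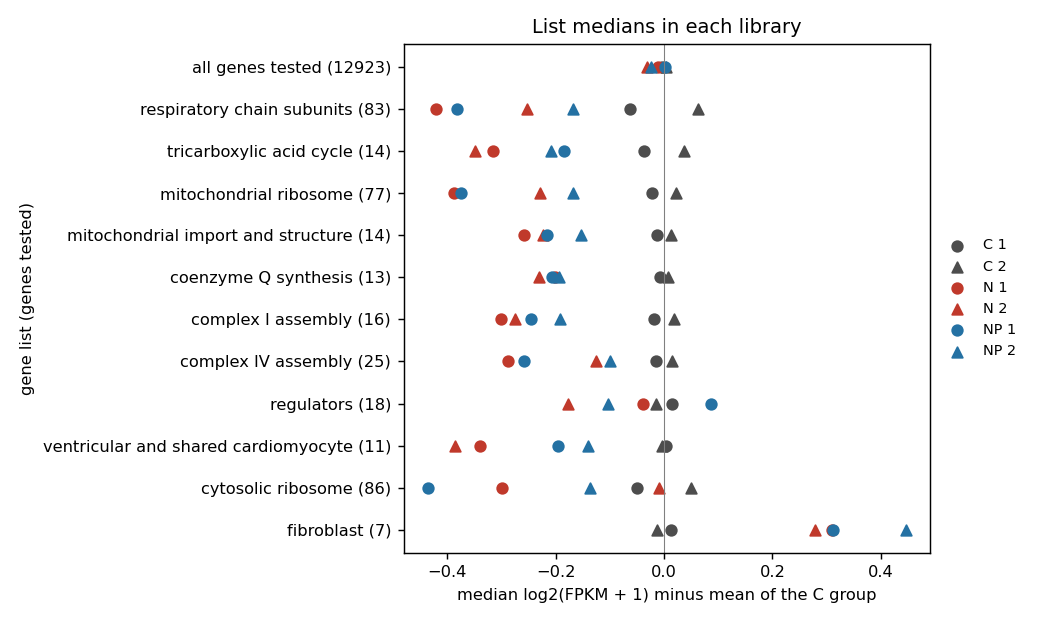
Median log2(FPKM + 1) minus the mean of the C group for gene lists in each library, with circles for replicate 1 and triangles for replicate 2. On the FPKM as deposited, the lists of mitochondrial proteins and of ventricular and shared cardiomyocyte genes lie left of 0 in the N libraries and the fibroblast list lies right of 0. Scaled to the cardiomyocyte list, the median of the respiratory chain subunits for N versus C is 0.00928, against 0.332 over all genes tested.

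Lists outside mitochondria were set beside these values. The cardiomyocyte list, of ventricular and shared genes, had a median N minus C difference of -0.35 with 11 of 11 below 0, equal to that of the respiratory chain at 2 decimals. In NP versus N its median was 0.16 with 11 of 11 above 0. The atrial markers, which are not in it, went the other way between N and C, with 5 of 5 above 0 and a median of 7.09. The ratio of the summed FPKM of the respiratory chain to that of the cardiomyocyte list was 1.05 and 1.09 in C, 1.05 and 1.16 in N, and 1.05 and 1.04 in NP, so that on this measure the N and C groups overlapped. Scaling the libraries to this list moved the median of all genes tested by N minus C to 0.332 and left 2 members called, *Cox4i2* and *Cox6a1*, both higher in the N group. Of the 12923 genes tested, 2250 were called higher and 17 lower under this scaling. The cytosolic ribosome, a set of short and abundant mRNAs, had a median N minus C difference of -0.15 with 66 of 86 below 0. Between NP and N its median was -0.121 with 77 of 86 below 0, where 67 of 83 respiratory chain genes were above 0. Markers of other cells were higher in the N than in the C group for 7 of 7 fibroblast genes (median 0.36, 0 called) and 7 of 7 macrophage genes (median 0.85, with *Adgre1*, *C1qb* and *Mrc1* called). Macrophage markers summed to 336 and 302 FPKM in C, 612 and 526 in N, and 251 and 223 in NP. The part of cell composition in the values of the respiratory chain was not tested.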

How the data were processed

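Heart RNA of the C, N and NP groups was read from 6 libraries, 2 in each group as their titles give it. The authors prepared stranded poly(A) libraries, sequenced them as 75-base single-end reads, mapped these to mm10 with TopHat2 2.0.13, Bowtie2 2.2.3 and SAMtools 0.1.19, and deposited FPKM from Cufflinks 2.2.1. The annotation and the use of strand are not given in the sources used here, so overlapping antisense genes may add to a value. Read counts were not used. Depth was estimated from the steps of low FPKM values in 3742 genes, of which 75.4 to 80.2% came within 0.1 read of a whole number, and FPKM of the deeper C libraries are the more precise.

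FPKM were taken as log2(FPKM + 1), with 1 as pseudocount, so that differences of low genes are understated. Genes with a mean under 0.5 FPKM were left out, which left 12923 and all 83 members. A linear model with 3 groups was fitted with limma 3.58.1 in R 4.3.3, with moderation that follows the mean level. *P* values are two-sided and were adjusted by Benjamini-Hochberg over all genes tested in a comparison, with a threshold of 0.05. Group medians over members carry no test, as members are not replicates. The script was tested on simulated data.

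Lists and promoters were handled in Python 3.11.15 (pandas 2.3.3, numpy 2.4.6), and figures were drawn with matplotlib 3.10.9. Shared sequence was counted as 75-base windows of GENCODE M21 transcripts that occur in transcripts of other genes: 55 members had none and 4 had over 50% (*Atp5g2*, *Atp5l*, *Atp5o* and *Cox7c*). Gene positions are from RefSeq on GRCm38.p6, the assembly of mm10.

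The members, the lists, the tests and the alternatives were chosen with earlier results of these data known. Members were named by a rule: per complex the most and least abundant and those with the largest and smallest difference in each comparison, the 3 smallest *P* values per comparison, the isoform pairs, complex II and the genes at the edge of the level. *Ndufb4*, *Atp5k* and *Atp5e* were added after their values were seen, with *Ndufb4* and *Atp5k* named for their printed promoters. Other filters, pseudocounts, scalings, spread estimates, replicate block and libraries left out were run as alternatives. 1 member is counted in the sums and medians but not reported here by name.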

Additional observations from a re-analysis of the deposited data

How the results depend on the processing

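Of 1410 differences and medians recomputed under alternatives, 1338 kept their sign and 72 turned, 41 of them in N versus C, 30 in NP versus N and 1 in NP versus C. Many of the kept signs could not turn. Other filters, spread estimates, the replicate block alone and leaving out a library of a group not compared do not alter a gene's difference. Under the cardiomyocyte scaling, members under 0 in N versus C went from 81 to 39. The count of members past the threshold between N and C, 0 as reported, was 7 with the replicate block (*Atp5k*, *Cox4i1*, *Cox7a1*, *Ndufb8*, *Sdhb*, *Uqcr10* and *Uqcrh*, all lower in the N group), 3 with a correction for GC content and length (*Cox4i1*, *Cox7a1* and *Ndufb8*), 6 with that correction and the replicate block, and 2 after scaling to the cardiomyocyte list. For NP versus N and NP versus C it stayed at 0 in every alternative, the block included. Over all genes tested by N versus C, 274 were called higher and 54 lower with the block, and 247 and 42 with the correction. With both these were 292 and 69, and after the cardiomyocyte scaling 2250 and 17. The labels do not say that a replicate number marks a shared animal or batch: over all genes, the deviations of same-numbered libraries had a Pearson correlation of 0.0471 between C and N, 0.124 between C and NP and 0.458 between N and NP (Spearman 0.23, 0.263 and 0.555), and there are only 2 pairs. Over the members, with *Ndufs5* included, it was higher, at 0.788, 0.816 and 0.988 (Spearman 0.56, 0.626 and 0.866). *Ndufs5*, whose replicates differ most, weighs on these Pearson values, which were not computed without it.

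The scaling moved the size of the differences from C, and in part their direction. Scaling to the same total moved the median of all genes to 0.116 in N versus C and 0.117 in NP versus C. Under it 75 of 83 members were under 0 in N versus C, with a median of -0.178 (complex I -0.186, II -0.124, IV -0.111, V -0.128), and in NP versus C 63 of 83, with a median of -0.116 (I -0.111, II -0.0262, III -0.122, IV -0.149, V -0.051). With quantile normalization 69 of 83 were under 0 in N versus C, and the median was -0.176 (I -0.188, II -0.128, III -0.184, V -0.106) and -0.0739 in NP versus C (I -0.0812, II 0.025, III -0.0668, IV -0.158, V -0.0518). With the same total without the 100 highest genes, complex II was at -0.218 in N versus C, and in NP versus C complex II was at -0.0827 and complex V at -0.107. With the GC and length correction, with or without the block, complex IV was at -0.144 in NP versus C.

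The following alternatives were chosen after seeing the data: the scaling to the cardiomyocyte list, the GC and length correction, a filter at 100 FPKM, and leaving out genes with shared sequence or doubtful membership. The cardiomyocyte scaling shifted all genes by 0.363 in N versus C, -0.195 in NP versus N and 0.168 in NP versus C, to medians of 0.332, -0.17 and 0.155. The members' median became 0.00928 in N versus C (I 0.000887, II 0.0634, III -0.0593, IV 0.0765, V 0.0638), -0.125 in NP versus N (I -0.119, II -0.0783, III -0.0716, IV -0.168, V -0.12) and -0.105 in NP versus C (I -0.0995, II -0.0148, III -0.111, IV -0.137, V -0.0396).

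Single genes turned direction mainly where their difference was small. After the cardiomyocyte scaling, N minus C was 0.121 for *Atp5b*, 0.168 for *Atp5g1*, 0.219 for *Atp5g2*, 0.152 for *Atp5g3*, 0.17 for *Cox6a2*, 0.0641 for *Cox7a2*, 0.186 for *Cox8a*, 0.181 for *Cox8b*, 0.326 for *Ndufa12*, 0.273 for *Ndufa4l2*, 0.134 for *Sdha*, 0.123 for *Sdhc*, 0.00371 for *Sdhd*, 0.242 for *Uqcrb* and 0.0316 for *Uqcrc1*. NP minus N was -0.113 for *Atp5b*, -0.127 for *Cox4i1*, -0.134 for *Cox7a1*, -0.086 for *Cox8b*, -0.155 for *Ndufb8*, -0.0601 for *Sdha* and -0.0174 for *Uqcrc1*. With quantile normalization, N minus C was 0.22 for *Atp5b*, 0.113 for *Atp5g1*, 0.0139 for *Atp5g2*, 0.0994 for *Cox6a2*, 0.144 for *Ndufa12* and 0.196 for *Uqcrb*, and NP minus N was -0.143 for *Atp5b* and -0.016 for *Cox7a1*. With the same total, N minus C was 0.032 for *Atp5g2*, 0.139 for *Ndufa12*, 0.0772 for *Ndufa4l2* and 0.0546 for *Uqcrb*, and without the 100 highest genes 0.0449 for *Ndufa12*. The GC and length correction, with or without the block, gave 0.0261 for *Ndufa12* and 0.0075 for *Ndufa4l2*.

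Leaving out 1 library at a time gave median N minus C differences of -0.406 to -0.265 for complex I, -0.372 to -0.243 for II, -0.598 to -0.29 for III, -0.443 to -0.14 for IV and -0.44 to -0.247 for V. For NP minus N the range was -0.0371 to 0.167 for complex I, 0.0396 to 0.166 for II, -0.0728 to 0.294 for III, -0.111 to 0.133 for IV and -0.0594 to 0.206 for V. Without N replicate 1 complexes I, III, IV and V were under 0, and without NP replicate 2 complexes I, IV and V. For NP minus C it was -0.372 to -0.166 for complex I, -0.26 to -0.116 for II, -0.394 to -0.187 for III, -0.421 to -0.174 for IV and -0.384 to -0.133 for V. The N minus C difference ran from -0.218 to 0.145 for *Ndufa12*, -0.186 to 0.00681 for *Ndufa4l2*, -5.15 to 2.8 for *Ndufs5* and -0.301 to 0.0592 for *Uqcrb*. The NP minus N difference ran from -0.0512 to 0.188 for *Cox4i1*, -0.0991 to 0.221 for *Cox7a1*, -0.0378 to 0.256 for *Cox8b* and -0.0539 to 0.133 for *Ndufb8*. The causes were not tested. With 2 libraries per group, a lone library was assumed to vary like the others. At a filter of 100 FPKM, 7 members gave no value.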

Other observations

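Some subunits stood far lower in replicate 1 than in replicate 2 of the diet groups. *Ndufb4* measured 332.4 FPKM in N replicate 1 and 585.4 in N replicate 2, against 738.5 and 812.1 in C. *Atp5e* measured 670.9 and 1214 in N, 821.7 and 1133 in NP, and 1420 and 1586 in C. *Cox7b*, a small subunit of complex IV, measured 463.9 and 877.7 in N, 514.7 and 801.8 in NP, and 791.9 and 927.2 in C. The members have a median transcript of 861 bases against 2915.5 bases over the other genes tested, and a median GC content of 51.3% against 50.4%.

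The opposite difference was found in *Atp5j2*, at 1296 and 1008 FPKM in N and 1275 and 983 in NP, and in *Cox7c*, at 921.4 and 778.9 in N and 1039 and 790.8 in NP. In the C group, replicate 2 was the higher for both, with 1932 and 2159 FPKM for *Atp5j2* and 1331 and 1509 for *Cox7c*. Of the 75-base windows of *Cox7c*, 50.4% occur in other transcripts. *Cox7c*, *Cox7b* and these replicate differences were singled out after their values were seen.

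White adipocyte markers summed to 0.925 and 3.79 FPKM in C, 41.9 and 36.5 in N, and 4.84 and 30.1 in NP.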
